A study of Gallus gallus with 6 samples.

Results

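Among the lncRNAs (long noncoding RNAs, transcripts too long to be small RNAs and with no predicted protein) that differed between mature and immature livers of breeder roosters, 375 of 622 lay in intergenic DNA more than 100000 bp from every mRNA listed as differing between the same livers. They were chosen by class code and position within lists that hold only transcripts that passed the authors' own comparison. A member carried the authors' class code u, which marks an intergenic transcript, and the gap between its locus and the nearest locus of any of the 1480 deposited mRNA rows of its chromosome was over 100000 bp. They are called far intergenic lncRNAs here, beside the 186 near intergenic lncRNAs within that distance and the 61 lncRNAs of the class codes x, j and o, which overlap genes. The 375 transcripts carried 367 gene identifiers and occupied 337 loci, because 22 loci held 2 or more members each. The 60 members of those 22 loci share a coordinate interval with another member and were not independent of each other.

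The mature group comprised 3 libraries, each from the liver of 1 rooster aged 40 weeks. The immature group comprised 3 libraries, each from pooled RNA of the livers of 4 chicks aged 1 day. All birds were Arbor Acres breeder roosters, a broiler line, without any treatment other than 12 h of fasting, and ribosomal RNA was removed before strand-specific libraries were made. Age and pooling cannot be told apart, since the libraries of chicks were pools and those of adults were not.

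Each transcript has the authors' FPKM of the mature and of the immature group (fragments per kilobase of transcript, scaled by the mapped fragments of the library), with no value per library, so neither a spread between livers nor a test is given. Only transcripts that passed the authors' own comparison are in the tables, and a transcript that is not listed has no value here. The study's results section reports fewer differing lncRNAs, most of them lower in mature livers. Its discussion gives the split of the deposited rows. Counts and shares of direction here are those of the deposited rows only. Among members with values in both groups, the FPKM of the higher group was never less than 2.00 times that of the lower group. Each difference was taken as the log2(FPKM + 1) of mature livers less that of immature livers, which makes the difference of low transcripts look smaller than their ratio, and a difference over 1 or under -1 is called past 1. In bulk liver, fewer cells of a type and less RNA per cell cannot be told apart.

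Some markers of liver cell types differed between the groups in the same tables. The hepatocyte markers CYP7A1 and LFABP, 2 of 10 looked for that were listed, summed to 9.32 FPKM in mature and 2159 FPKM in immature livers. CYP7A1 had a log2 difference of -2.97, so most of the sum in immature livers came from LFABP. The other hepatocyte markers were not listed and have no value here, so this sum does not stand for hepatocytes as a whole. The macrophage markers C1QA, CSF1R and TLR4, 3 of 4 listed, summed to 322 FPKM in mature and 62.4 FPKM in immature livers. The T cell markers CD3D and CD8A, 2 of 4 listed, summed to 38.1 FPKM in mature and 0.903 FPKM in immature livers. Of 8 erythroid markers only HBE1 was listed, at 0.0909 FPKM in mature and 3.99 FPKM in immature livers. The part of cell composition in the differences below was not tested.

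Rows of chromosome W went against the labels. Male birds carry a pair of Z chromosomes and no W, and every bird was labelled a rooster. All 4 rows of W were listed at 0 in mature livers. In immature livers 3 mRNA rows, ENSGALG00000014184 (1.62 FPKM), ENSGALG00000014441 (1.41 FPKM) and ENSGALG00000009227 (0.671 FPKM), and 1 far intergenic lncRNA, TCONS_00065314 (chromosome W, 837431 to 838021, 1.07 FPKM), had values above 0. The origin of these values was not tested. W genes can share reads with similar copies on Z, and the sex of each pooled chick is known from the labels only. Neither can be checked here. Without the 14 members on Z and W, 161 of 361 far intergenic lncRNAs were higher in mature livers, against 166 of all 375. This count leaves out members on Z and W only and does not bear on any difference of sex on other chromosomes.

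Intergenic lncRNAs are transcribed from their own start sites or spring from enhancers and from unannotated ends of genes. Some act on genes beside them, others on distant genes, and for most no role is known. They are usually less abundant than mRNAs and more restricted to a tissue or stage. In a library depleted of ribosomal RNA, which keeps RNA without a poly(A) tail, a long unspliced RNA can be assembled as several neighbouring pieces, each with a name of its own. The files name no gene for these transcripts, so their identifiers are used as deposited, and the genes on either side are given by name. Coordinates are printed as deposited. The study's methods mapped reads to Gallus gallus 5, but they describe other assembly tools than the processing notes of the deposit do, so the build of these coordinates is not settled here.

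Far intergenic lncRNAs were low in both groups. Their median was 0.646 FPKM in mature and 0.739 FPKM in immature livers, with quartiles of 0.198 and 1.02 FPKM in mature livers, and of 0.290 and 1.15 FPKM in immature livers. Of the 375 members, 192 (51.2%) stayed under 1 FPKM in both groups, and 12 exceeded 10 FPKM in either. The level in whichever group was higher had a median of 0.972 FPKM and was at least 0.583 FPKM.

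In mature livers 166 far intergenic lncRNAs (44.3%) were higher and 209 (55.7%) were lower. The shares over all 622 lncRNA rows were 48.2% higher and 51.8% lower. The 166 higher members had a median of 0.954 FPKM in mature and 0.257 FPKM in immature livers. The 209 lower members had a median of 0.224 FPKM in mature and 0.980 FPKM in immature livers. The mirrored levels of the 2 sets are in part given by limits that both share. The higher group was at least 0.583 FPKM, and ratios of members above 0 in both groups were never under 2.00. Among members above 0 in both groups, the ratio of mature to immature FPKM had a median of 3.90 over 155 higher members, and the ratio of immature to mature FPKM had a median of 4.44 over 196 lower members.

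On log2(FPKM + 1), 44 members were past 1 higher in mature livers, which is 11.7% beside 15.3% of all lncRNA rows, and 45 were past 1 lower, which is 12.0% beside 13.8%. In either direction 89 members (23.7%) were past 1, beside 29.1% of all lncRNA rows. A row under 1 FPKM in both groups cannot be past 1 on this scale. Such rows made up 51.2% of the members, beside 42.8% of all lncRNA rows. The smaller share past 1 is therefore bound to the lower levels and does not by itself show smaller changes. With a pseudocount of 0.01 in place of 1, which hardly compresses low values, 166 members were past 1 higher and 208 lower. That count nearly restates the authors' selection, as the ratio of listed members above 0 in both groups was never under 2.00. The share of all lncRNA rows was not computed at this pseudocount.

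**Figure D1:**
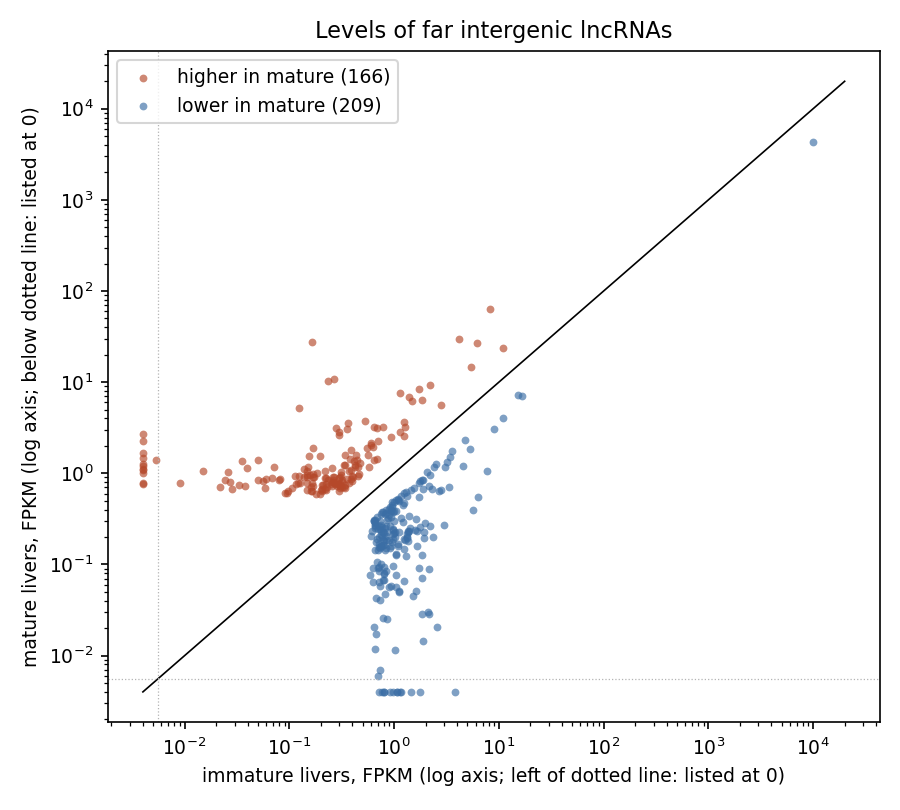
FPKM of each far intergenic lncRNA in mature livers (vertical, log axis) against immature livers (horizontal, log axis), with values listed at 0 drawn beyond the dotted lines; each point is 1 transcript and the line marks equal levels. The 166 members higher in mature livers and the 209 lower members lie on opposite sides of the line, most with the higher of their values near 1 FPKM, and 1 member stands alone at 4349 FPKM in mature and 10025 FPKM in immature livers.

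In that plot of levels, 1 transcript stood apart from all others. TCONS_00008168 (gene identifier XLOC_003735, chromosome 1, 100387864 to 100388395) was listed at 4349 FPKM in mature and 10025 FPKM in immature livers, a log2 difference of -1.20. Its locus is 532 bp long and lies between SAMSN1, which encodes an adaptor of immune cells, and ATP5J, a subunit of mitochondrial ATP synthase, with 1491849 bp to the nearer of them. It held 89.2% of the summed FPKM of all members in mature livers and 96.0% in immature livers. The other 374 members summed to 528 FPKM in mature and 412 FPKM in immature livers, and none of them exceeded 63.9 FPKM in mature or 16.5 FPKM in immature livers. Neighbouring TCONS_00003227, which begins at 100386962, had 1.05 FPKM in mature and 0.367 FPKM in immature livers, so the pair differed in opposite directions.

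The next highest level in mature livers, and the next 2 in immature livers, were far below it. TCONS_00036460 (chromosome 25, 198516 to 252782) had 63.9 FPKM in mature and 8.22 FPKM in immature livers and lay 118591 bp from PLEKHO1, a pleckstrin homology domain gene. TCONS_00030901 (chromosome 2, 120593545 to 120599729) had 7.09 FPKM in mature and 16.5 FPKM in immature livers, between PI15 and the fatty acid binding protein gene FABP5. TCONS_00000143 (chromosome 1, 2740770 to 2741045) had 7.23 FPKM in mature and 15.1 FPKM in immature livers.

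The 8 most positive differences came from 5 places in the genome. On chromosome 5, 3 transcripts of 1 interval (49174550 to 49181580) were higher in mature livers. TCONS_00054728 had 27.6 FPKM in mature and 0.165 FPKM in immature livers (log2 difference 4.62), TCONS_00054730 had 10.8 FPKM in mature and 0.268 FPKM in immature livers (3.22) and TCONS_00054727 had 5.19 FPKM in mature and 0.124 FPKM in immature livers (2.46). The neighbouring TCONS_00054731 begins 15320 bp further on and had 0.699 FPKM in mature and 0.343 FPKM in immature livers. The mRNA rows on either side, DEGS2, a sphingolipid desaturase at 0.805 FPKM in mature and 0.310 FPKM in immature livers, and the uncharacterized ENSGALG00000020380 at 1.65 FPKM in mature and 0.213 FPKM in immature livers, were also higher in mature livers.

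On chromosome 8, 3 transcripts of XLOC_026592 (24645571 to 24680842) were higher in mature livers. TCONS_00062650 had 30.0 FPKM in mature and 4.17 FPKM in immature livers (2.58), and TCONS_00062648 had 10.4 FPKM in mature and 0.232 FPKM in immature livers (3.20). TCONS_00062647, which is not among the 8 most positive, had 8.47 FPKM in mature and 1.74 FPKM in immature livers (1.79).

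On chromosome 1, 4 transcripts of 1 interval (87611976 to 87680738) had 2.83 to 7.66 FPKM in mature and 0.297 to 1.13 FPKM in immature livers. Of these, only TCONS_00002843, the most abundant (2.02), is among the 8 most positive. Both mRNA rows beside the interval ran the other way, KIAA1524 (0.399 FPKM in mature, 1.85 FPKM in immature livers) and ENSGALG00000015395 (0.0414 FPKM in mature, 4.06 FPKM in immature livers). TCONS_00025392 (chromosome 2, 30658961 to 30710199) had 26.6 FPKM in mature and 6.22 FPKM in immature livers (1.93) and lay between AGMO, an enzyme that cleaves ether lipids, and FAM126A. TCONS_00036460, given above, completed the set with a difference of 2.82.

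The 8 most negative differences were smaller in size. TCONS_00007394 (chromosome 1, 73916586 to 73916899) was listed at 0 in mature livers and had 3.81 FPKM in immature livers (-2.27). It lay between FGF23, which encodes a hormone of phosphate balance, and VWF, the von Willebrand factor of platelet adhesion, in an interval that holds the cyclin gene CCND2 and 3 potassium channel genes by the RefSeq table. On chromosome 1, TCONS_00009221 had 0.400 FPKM in mature and 5.67 FPKM in immature livers (-2.25), and TCONS_00009223 of the same interval (141705344 to 141739987) had 0.553 FPKM in mature and 6.30 FPKM in immature livers (-2.23). They lay between BAFF, a survival factor of B cells that was higher in mature livers (1.56 FPKM, against 0.279 FPKM in immature livers), and the peptidase gene TPP2, which was lower (0.558 FPKM, against 2.17 FPKM in immature livers). TCONS_00056905 (chromosome 6, 11612177 to 11613040) had 1.05 FPKM in mature and 7.71 FPKM in immature livers (-2.08), and TCONS_00038136 (chromosome 27, 27257 to 49502) had 0.269 FPKM in mature and 3.03 FPKM in immature livers (-1.67). The remaining 3, TCONS_00003064, TCONS_00003071 and TCONS_00003062, share an interval of chromosome 1 that is described with the run of 16 members.

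In 1 of the groups 24 far intergenic lncRNAs were listed at 0. In mature livers 13 were listed at 0, with 0.715 to 3.81 FPKM in immature livers. In immature livers 11 were listed at 0, with 0.766 to 2.70 FPKM in mature livers. Besides TCONS_00007394, the highest partners were TCONS_00026775 (2.70 FPKM) and TCONS_00030887 (2.24 FPKM) in mature livers, TCONS_00011922 (1.76 FPKM) in immature livers and TCONS_00002501 (1.66 FPKM) in mature livers. The tables hold no fragment counts, so no limit on what a 0 allows is given.

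Most far intergenic lncRNAs stood in runs, defined as 2 or more consecutive members of a chromosome with no gap over 50000 bp. There were 65 runs with 232 members (61.9%), and 143 members stood alone. The share in runs is not given here for near intergenic lncRNAs. Of the runs, 29 held 2 members, 10 held 3, 14 held 4 and 12 held 5 or more, up to 16. They spanned 1434 to 203317 bp, with a median of 34660 bp. In 13 runs all members shared 1 locus. Members of a run often lay end to end: of 106 consecutive pairs with a gap of 1 bp to 10 kb, 50 were at most 500 bp apart. The tables hold no strand or exon structure, and whether members of a run are pieces of 1 RNA was not tested.

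In 64 of the 65 runs every member differed in the same direction, 30 higher and 34 lower in mature livers. The exception was the pair of TCONS_00008168 and TCONS_00003227. Of 101 runs built from all intergenic lncRNAs, 100 had a single direction, so this was not particular to far members. Counted once each, runs and lone members of the far set made 208 units, of which 101 (48.6%) were higher, 106 lower and 1 mixed. The excess of lower members over higher ones lay among members in runs, 137 lower and 95 higher. Lone members were divided into 71 higher and 72 lower. This is not shown to be a trait of runs, since the runs of chromosome 1 weigh on it. Without chromosome 1, members in runs and lone members together were 138 higher and 133 lower.

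**Figure D2:**
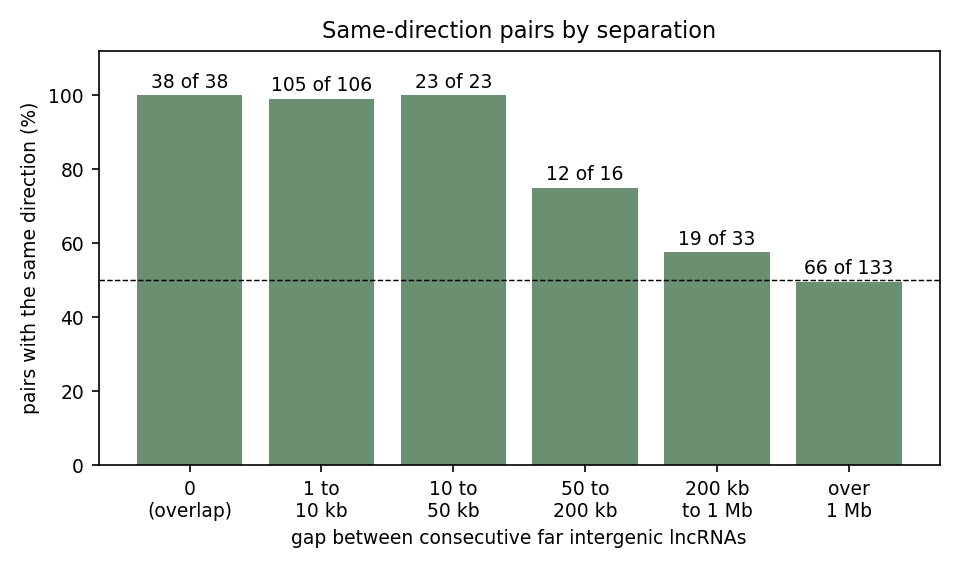
Share of consecutive pairs of far intergenic lncRNAs that differed in the same direction (vertical, percent), by the gap between them (horizontal); the numbers above the bars are pairs and the dashed line marks 50%. Nearly all pairs up to 50 kb apart had the same direction, and 66 of 133 pairs over 1 Mb apart did.

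Agreement in direction faded with separation. All 38 pairs whose intervals overlapped or were identical had the same direction. So did 105 of 106 pairs up to 10 kb apart and all 23 pairs over 10 and up to 50 kb apart. Over 50 and up to 200 kb the count was 12 of 16, from there to 1000000 bp it was 19 of 33 (57.6%), and beyond that it was 66 of 133 (49.6%). Of the 167 pairs up to 50000 bp apart, 6 shared a gene identifier, all of them among the 38 pairs with overlapping or identical intervals. Most of these 38 pairs thus bore different gene identifiers. An interval can be given to several identifiers, so a shared interval does not show that the transcripts themselves overlap. Levels within a run were even in some and uneven in others. In 18 of the 36 runs of 3 or more, the highest FPKM of the group with the higher level was at most 2 times the lowest, and over the 36 runs this ratio had a median of 2.00 and was between 1.17 and 39.5. Over all members the level in the higher group was at least 0.583 FPKM, with a median of 0.972 FPKM. Many members are therefore within 2 times of each other whatever their position, and evenness is not shown to be a trait of runs.

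The run with the most members lay on chromosome 1 (95332595 to 95479549) and held 16 with 16 gene identifiers in 16 separate loci, all lower in mature livers. They had 0.0907 to 0.265 FPKM in mature livers, with a median of 0.162 FPKM, and 0.624 to 1.04 FPKM in immature livers, with a median of 0.763 FPKM. The groups did not overlap across these members. That follows from the selection, since ratios between the groups were never under 2.00 and the highest level in immature livers was 1.67 times the lowest. The lowest in mature livers was TCONS_00003117 (0.0907 FPKM, against 0.624 FPKM in immature livers) and the highest was TCONS_00003120 (0.265 FPKM, against 0.919 FPKM). TCONS_00003111 had the most negative difference, -0.86, with 0.126 FPKM in mature and 1.04 FPKM in immature livers, and TCONS_00003112 the smallest, -0.50, with 0.177 FPKM in mature and 0.668 FPKM in immature livers. No member of this run was past 1 on log2(FPKM + 1), although the FPKM of immature livers was 3.47 to 8.29 times that of mature livers.

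From its start, TCONS_00003091, TCONS_00003094, TCONS_00003095 and TCONS_00003097 had 0.201, 0.164, 0.156 and 0.143 FPKM in mature livers, against 0.771, 0.807, 0.723 and 0.822 FPKM in immature livers. TCONS_00003098, TCONS_00003099, TCONS_00003106 and TCONS_00003108 followed with 0.192, 0.159, 0.143 and 0.216 FPKM in mature livers, against 0.967, 0.755, 0.656 and 0.972 FPKM in immature livers. The loci of these first 8 of the run spanned 96059 bp, of which the locus of TCONS_00003106 alone took 34945 bp. Further on, TCONS_00003110, TCONS_00003114, TCONS_00003123 and TCONS_00003129, the last, had 0.166, 0.222, 0.154 and 0.0920 FPKM in mature livers, against 0.716, 1.00, 0.737 and 0.709 FPKM in immature livers.

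A second run of 6 lower members (95148644 to 95242929) ended 89665 bp before it. In 1 interval of 55467 bp it held TCONS_00003064 with 0.0204 FPKM in mature and 2.54 FPKM in immature livers (-1.80), TCONS_00003071 with 0.0289 FPKM in mature and 2.15 FPKM in immature livers (-1.61), TCONS_00003062 with 0.0303 FPKM in mature and 2.11 FPKM in immature livers (-1.59), TCONS_00003065 with 0.0145 FPKM in mature and 1.89 FPKM in immature livers (-1.51) and TCONS_00003061 with 0.0505 FPKM in mature and 1.11 FPKM in immature livers (-1.01). Together the 2 runs made a stretch of 330906 bp with 22 members, all lower in mature livers, with 0.0145 to 0.552 FPKM in mature and 0.624 to 2.54 FPKM in immature livers. The nearest mRNA rows were PTGFRN, the prostaglandin F2 receptor inhibitor, before it (2.53 FPKM in mature, 6.44 FPKM in immature livers) and SAMSN1 after it (0.997 FPKM in mature, 0.0917 FPKM in immature livers), 1965735 bp or more away. They ran in opposite directions. Between them the RefSeq table places 27 protein-coding genes, including ROBO1 and ROBO2, receptors of axon guidance, and GBE1, the glycogen branching enzyme. These genes are unlisted by definition, since the flanks are the nearest listed mRNA rows, and they have no value here.

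**Figure D3:**
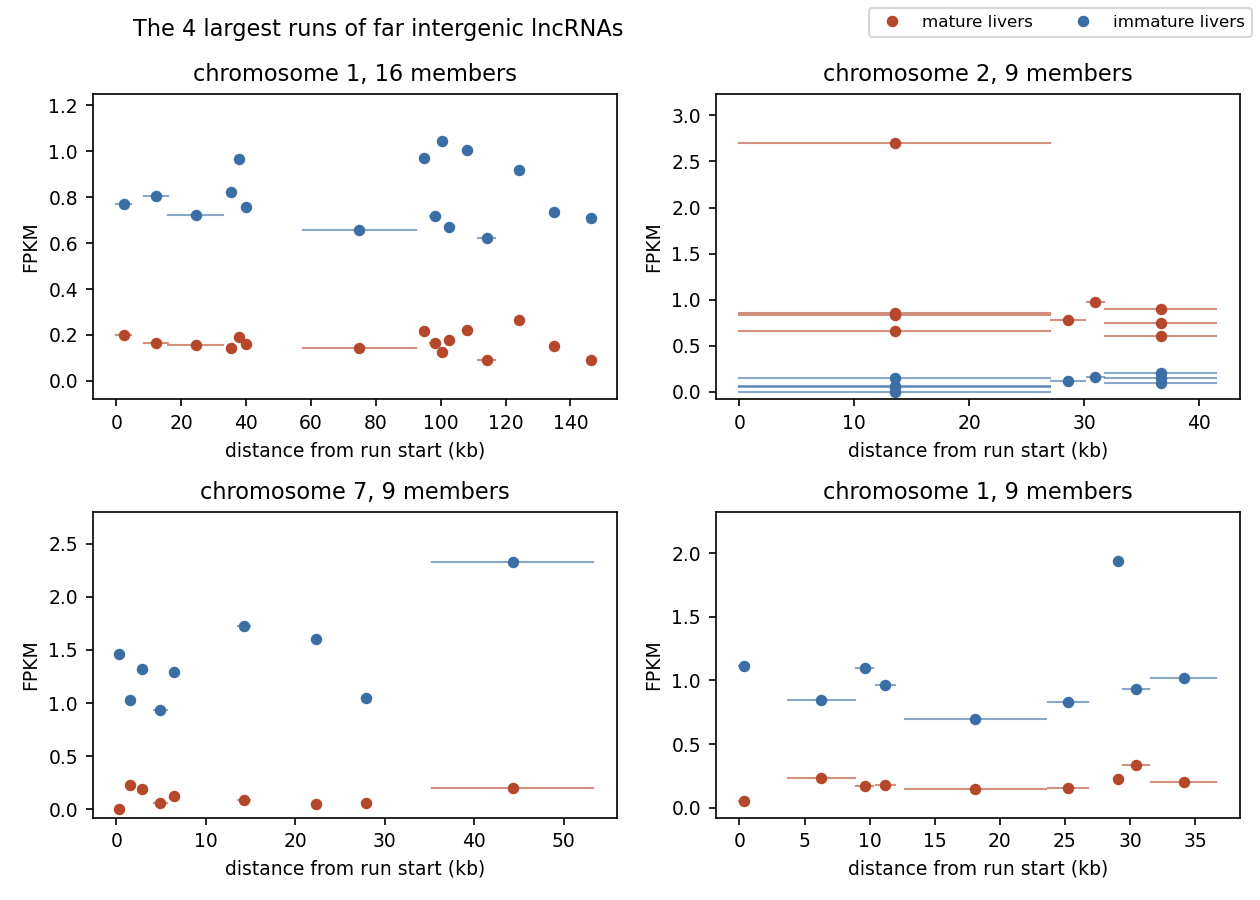
FPKM of each member of the 4 runs with the most members (vertical) by distance from the start of the run (horizontal, kb), with mature livers in red and immature livers in blue; each dot is at the middle of a transcript's locus and the bar through it spans that locus. In each panel the values of the groups do not overlap, with mature livers below immature livers on chromosomes 1 and 7 and above them on chromosome 2. Much of this separation is given by the selection, since listed members with values in both groups differ by a ratio never under 2.00.

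After it, 3 runs held 9 members each. On chromosome 2 (97957428 to 97998922) the 9 members, in 4 loci, were all higher in mature livers. They had 0.602 to 2.70 FPKM in mature and 0 to 0.209 FPKM in immature livers. In the first interval, of 27056 bp, TCONS_00026775 had 2.70 FPKM in mature livers and was listed at 0 in immature livers, TCONS_00026767 had 0.861 FPKM in mature and 0.0600 FPKM in immature livers, TCONS_00026776 had 0.833 FPKM in mature and 0.0566 FPKM in immature livers, and TCONS_00026777 had 0.663 FPKM in mature and 0.149 FPKM in immature livers. The 2 transcripts after it, TCONS_00026778 (0.780 FPKM in mature, 0.121 FPKM in immature livers) and TCONS_00026779 (0.972 FPKM in mature, 0.167 FPKM in immature livers), each held a locus of their own. In the last interval, of 9622 bp, TCONS_00026780 had 0.901 FPKM in mature and 0.147 FPKM in immature livers, TCONS_00026782 had 0.750 FPKM in mature and 0.209 FPKM in immature livers, and TCONS_00026784 had 0.602 FPKM in mature and 0.0959 FPKM in immature livers. Apart from TCONS_00026775, the run was even, at 0.602 to 0.972 FPKM in mature livers. On one side stood IMPA2, an inositol monophosphatase with 1.34 FPKM in mature and 6.04 FPKM in immature livers, and on the other ARHGAP28 with 2.28 FPKM in mature and 0.895 FPKM in immature livers, so again the flanks ran in opposite directions.

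The run near the start of chromosome 7 (388324 to 441616) held 9 members in 9 loci, all lower in mature livers, with 0 to 0.227 FPKM in mature and 0.936 to 2.33 FPKM in immature livers. TCONS_00057827, which has the longest locus at 17980 bp, had 0.198 FPKM in mature and 2.33 FPKM in immature livers (-1.47). TCONS_00057824 had 0.0907 FPKM in mature and 1.72 FPKM in immature livers (-1.32), TCONS_00060337 had 0.0510 FPKM in mature and 1.61 FPKM in immature livers (-1.31), and TCONS_00060330 was listed at 0 in mature livers with 1.46 FPKM in immature livers (-1.30). These 4 and TCONS_00060333 (0.123 FPKM in mature, 1.29 FPKM in immature livers) were past 1. The other members were TCONS_00057822 (0.194 FPKM in mature, 1.32 FPKM in immature livers), TCONS_00060331 (0.227 FPKM in mature and 1.03 FPKM in immature livers), TCONS_00060332 (0.0584 FPKM in mature and 0.936 FPKM in immature livers) and TCONS_00060338 (0.0567 FPKM in mature and 1.05 FPKM in immature livers). Both mRNA rows beside the run were lower in mature livers as well, the uncharacterized ENSGALG00000029149 (0.654 FPKM, against 2.21 FPKM in immature livers) and FAM171B (0.0963 FPKM, against 0.599 FPKM in immature livers).

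The runs named from here to the end of the next paragraph were chosen after their values were seen. The members of the remaining run of 9, on chromosome 1 (183258278 to 183294878), were all lower, with 0.0504 to 0.332 FPKM in mature and 0.695 to 1.94 FPKM in immature livers, while both flanking mRNA rows, BIRC2, an inhibitor of apoptosis (40.1 FPKM in mature, 17.6 FPKM in immature livers), and CEP57, a centrosomal protein (1.97 FPKM in mature and 0.851 FPKM in immature livers), were higher. On chromosome 10, 5 members (7917343 to 7941096) had 0 to 0.0118 FPKM in mature and 0.658 to 0.906 FPKM in immature livers and followed each other nearly end to end. On chromosome 1, 6 members (55331635 to 55354980) had 0 to 0.0887 FPKM in mature and 0.665 to 2.16 FPKM in immature livers. They lay between STAB2, the hyaluronan scavenger receptor of liver sinusoids (3.61 FPKM in mature, 7.72 FPKM in immature livers), and DRAM1, an autophagy regulator (4.37 FPKM in mature, 0.506 FPKM in immature livers). The RefSeq table places the growth factor gene IGF1 between these flanks. As the flanks are the nearest listed mRNA rows, a gene between them is unlisted by definition and has no value here.

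Runs with higher levels in mature livers included 7 members on chromosome 6 (13837973 to 13910337) at 0.653 to 0.766 FPKM in mature and 0.168 to 0.307 FPKM in immature livers, the most even of the 36 runs of 3 or more by the ratio given above. Its flanks, the potassium channel gene kcnma1 (8.15 FPKM in mature, 1.94 FPKM in immature livers) and COMTD1 (27.9 FPKM in mature, 10.8 FPKM in immature livers), were higher too. On chromosome 2, 3 members (114212075 to 114243332) had 0.792 to 3.54 FPKM in mature and 0.00912 to 0.366 FPKM in immature livers. They lay between TTPA, the transfer protein of vitamin E (152 FPKM in mature, 18.4 FPKM in immature livers), and PDE7A, and the RefSeq table places CYP7B1, an oxysterol hydroxylase, among the genes between. Of 63 runs with a single direction and an mRNA row on each side, 23 had both flanks in the direction of the run, 30 had 1 and 10 had neither.

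Far intergenic lncRNAs were spread over 26 chromosomes, and chromosomes 1, 2 and 5 held 200 of them (53.3%), beside 267 of all 561 intergenic lncRNAs (47.6%). Chromosome 1 alone held 104, of which 28 were higher (26.9%) and 76 lower in mature livers, with medians of 0.254 FPKM in mature and 0.897 FPKM in immature livers. Runs took up 84 of the 104, in 20 runs, 2 of which made up the stretch of 22 described above. Without chromosome 1, 138 members were higher and 133 lower.

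**Figure D4:**
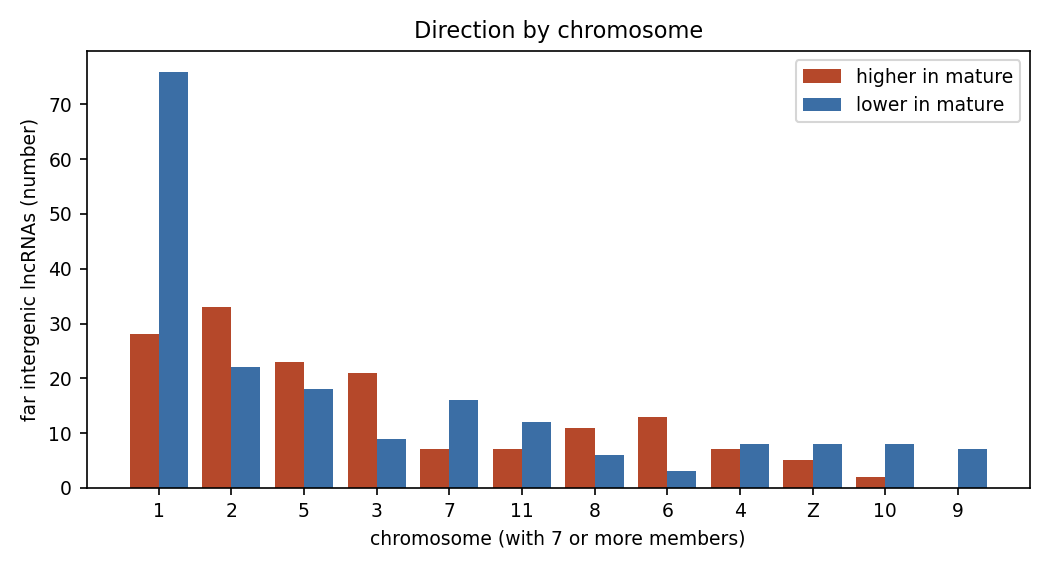
Number of far intergenic lncRNAs higher (red) and lower (blue) in mature livers (vertical), for the chromosomes with 7 or more members (horizontal, ordered by their number). Chromosome 1 has 28 higher and 76 lower members, while chromosomes 2, 3, 5, 6 and 8 have more higher than lower ones.

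Other chromosomes leaned either way. Chromosome 2 had 33 higher and 22 lower members, chromosome 5 had 23 higher and 18 lower, chromosome 3 had 21 higher and 9 lower, chromosome 6 had 13 higher and 3 lower, and chromosome 8 had 11 higher and 6 lower. Chromosome 7 had 7 higher and 16 lower members, chromosome 11 had 7 higher and 12 lower, chromosome 10 had 2 higher and 8 lower, and chromosome 9 had 0 higher and 7 lower. Single runs weigh on these counts. Of the 13 higher members on chromosome 6, 7 were the run between kcnma1 and COMTD1, and of the 16 lower members on chromosome 7, 9 were the run near its start. Chromosome 9 is different in that 5 of its 7 lower members stood alone. On chromosome 4, 15 of 45 intergenic lncRNAs were far (33.3%), whereas on chromosome 1 the share was 74.3% and on chromosome 5 it was 77.4%. Chromosome Z had 5 higher and 8 lower members.

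Set beside near intergenic lncRNAs, far ones were less abundant. The near set had a median of 0.845 FPKM in mature and 0.818 FPKM in immature livers, and 60 of its 186 members (32.3%) stayed under 1 FPKM in both groups, against 51.2% of the far set. Of the near set 100 (53.8%) were higher in mature livers, and 64 (34.4%) were past 1. The share past 1 depends on level, since a row under 1 FPKM in both groups cannot be past 1. The median locus was 3085 bp long in the far and 2906 bp in the near set. No test of these differences is given, since the members are not replicates of a condition.

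**Figure D5:**
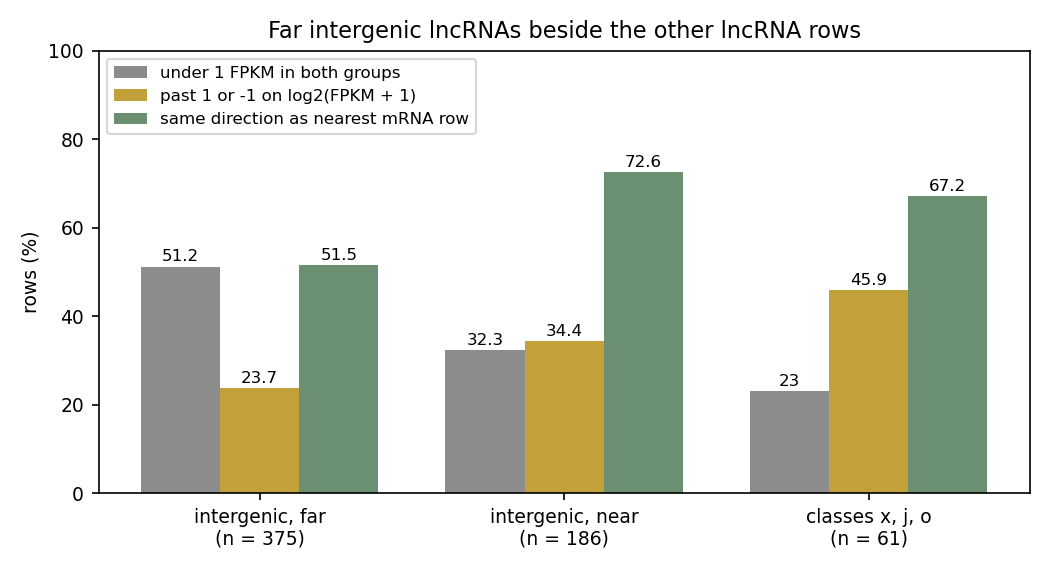
Share of lncRNA rows (vertical, percent) that stayed under 1 FPKM in both groups, that were past 1 or -1 on log2(FPKM + 1), and that differed in the same direction as their nearest mRNA row, for far intergenic, near intergenic and gene-overlapping lncRNAs (horizontal). The far set has the largest share under 1 FPKM (51.2%), the smallest share past 1 (23.7%) and the smallest share with the direction of the nearest mRNA row (51.5%). A row under 1 FPKM in both groups cannot be past 1, so the share past 1 depends on the share under 1 FPKM.

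Among intergenic lncRNAs, distance from a listed mRNA row also went with agreement in direction. Of the far set 193 (51.5%) differed in the same direction as the nearest mRNA row, against 135 of the near set (72.6%). The share over all lncRNA rows was 59.3%. The near set lay at a median of 6946 bp from that row, with a lower quartile of 445 bp. Whether near members are ends of the same gene was not tested. Rows of class codes x, j and o lay at a median of 72627 bp from theirs, and 67.2% had its direction. Agreement thus did not follow distance alone across all lncRNA rows. Unlisted genes can lie closer and were not counted. Counting each nearest mRNA row once, where all the lncRNAs nearest to it had a single direction, gave 82 of 155 in the far set (52.9%) and 82 of 116 in the near set (70.7%). Within the far set the share was 60.9% of 92 members up to 250 kb from that row, 54.3% of 116 from there to 500 kb, 54.4% of 79 from there to 1000000 bp and 35.2% of 88 beyond. The last band holds the 22 lower members of chromosome 1, all nearest to SAMSN1, which was higher in mature livers.

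The gap to the nearest mRNA row had a median of 460786 bp. Just inside the limit lay TCONS_00054744 (102509 bp, 0.793 FPKM in mature and 0.125 FPKM in immature livers), TCONS_00001897 (102810 bp, 0.773 FPKM in mature and 0.292 FPKM in immature livers) and TCONS_00020225 (104447 bp, 1.21 FPKM in mature and 4.51 FPKM in immature livers). Just outside lay TCONS_00012687 and TCONS_00012686 (95576 bp each) with 1.34 and 2.10 FPKM in mature and 0.502 and 0.375 FPKM in immature livers, and TCONS_00039083 (94384 bp) with 7.22 FPKM in mature and 17.5 FPKM in immature livers. Members on both sides of the limit thus held either direction. The farthest were TCONS_00031391 (3664888 bp), TCONS_00031392 (3663880 bp) and TCONS_00004485 (3610576 bp), the last listed at 0 in mature livers with 0.980 FPKM in immature livers.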

How the data were processed

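The values are FPKM that the authors computed for the mature and immature groups and deposited as 1 value per group for each transcript, with no library values and no fragment counts, so the counts behind each value are unknown and no interval, SD or test is given. Log2 fold change, direction, p-value and significance columns of the authors' own comparison were not used. Bowtie2 2.0.6, TopHat, Cuffdiff, Cufflinks, DESeq and FastQC are named in the submitters' processing notes, without roles. The study's methods name Gallus gallus 5 with other assembly tools, so the build of the coordinates is not settled. Gaps were counted between intervals. Differences were log2(FPKM + 1), mature minus immature, with a threshold of 1 in either direction (Python 3.11.15, pandas 2.3.3, numpy 2.4.6). Named transcripts were those of 3 runs with the most members (ties by FPKM), the 8 most positive and 8 most negative, the 3 highest per group, up to 5 listed at 0 in a group, the 3 on each side of the distance limit and the 3 farthest; other transcripts and runs were picked after their values were seen. The RefSeq gene table of another assembly (bGalGal1.mat.broiler.GRCg7b) was used for names and order of genes only. Members and lists were chosen with earlier results of these data known. Scripts were tested on simulated data. Other distance limits, pseudocounts, thresholds, run gaps and 1 transcript per locus were tried. Some neighbouring genes are not reported here.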

Additional observations from a re-analysis of the deposited data

How the results depend on the processing

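Of 32 alternatives, 23 gave counts within 1.5 times those reported. A limit of 1000000 bp left 88 far intergenic lncRNAs. A pseudocount of 0.1 put 151 past 1 higher and 183 lower in mature livers, a pseudocount of 0.01 put 166 and 208, and a threshold of 0.5 put 130 and 172. The counts at a pseudocount of 0.01 nearly restate the authors' selection. Runs built from all intergenic lncRNAs numbered 101, of which 100 had a single direction. The alternatives chosen after seeing the data, without chromosomes Z and W (43 higher and 41 lower past 1), with 1 transcript per run (32 and 30) and with 1 transcript per gene identifier (63 runs, 62 of a single direction), were among the 23. No paired analysis was possible because the tables hold 1 value per group, which also left no replicate to leave out. The fragment counts behind the values are not in the tables, which limits every value under 1 FPKM.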
